A study of Mus musculus with 8 samples.

Results

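The core and naive pluripotency transcription factors described here are *Pou5f1*, *Sox2*, *Nanog*, *Klf2*, *Klf4*, *Klf5*, *Esrrb*, *Tfcp2l1*, *Tbx3* and *Zfp42*. They were taken as the rows of the bulk count table whose Entrez identifiers carry these symbols, and all 10 were found among the 21950 genes of the table. The counts come from 8 libraries, 4 from d6PGCLC pools and 4 from E12.5 PGC pools, each pool from an independent experiment. d6PGCLCs are primordial germ cell-like cells after 6 days of induction, collected on day 8 of culture. They were derived from a female mouse BVSC-iPSC line, a line of induced pluripotent stem cells with Blimp1-Venus and Stella-ECFP reporters, and were sorted for both reporters. They had been cultured with BMP4, SCF, LIF and EGF. The E12.5 PGCs are primordial germ cells from female gonads of C57BL/6J embryos, sorted for the surface markers SSEA1 and integrin β3. The d6PGCLCs therefore stand for 1 cell line, and line, culture, stage and sort gate differ together between the groups and cannot be told apart. The paper cites earlier transcript work that likened d6PGCLCs to migrating germ cells of a stage before E12.5. The comparison asks how far germ cells made in culture match this later stage of the embryo at the level of transcripts.

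OCT4, the product of *Pou5f1*, and SOX2 bind DNA next to each other and, with NANOG, hold cells in the pluripotent state. The naive factors KLF2, KLF4, KLF5, ESRRB, TFCP2L1 and TBX3 stabilise that circuit in mouse embryonic stem cells, several of them downstream of LIF and STAT3, and *Zfp42* (REX1) is a widely used marker of the naive state. Primordial germ cells are not pluripotent in function but express much of this network, and female germ cells lose it as they enter meiosis.

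The promoters of *Pou5f1*, *Sox2*, *Nanog* and *Zfp42*, the core factors and the naive marker, are shown with chosen matches to known motifs in capitals. Other matches in these windows are left in lower case and are counted after the sequences. The RefSeq promoter table of GRCm38.p6 held windows of 300 bases, from 250 before to 50 after a gene start, for 8 of the 10 factors, and had no entry for *Klf5* and *Tbx3*. In *Nanog* (chr6:122707239-122707538, plus strand) the capitals mark the reverse complement of ATGCAAA, most of the octamer bound by POU factors, and of CATTGT, a SOX motif, with 1 base between them. In *Zfp42* (chr8:43306960-43307259, minus strand) they mark the whole octamer ATGCAAAT, read on the reverse strand, and in *Sox2* (chr3:34649745-34650044, plus strand) they mark ATGCAAA. In *Pou5f1* (chr17:35505782-35506081, plus strand) they mark GGGCGG, a GC box, and AGGTCA, a half-site of nuclear receptors such as ESRRB and NR5A2.
Nanog: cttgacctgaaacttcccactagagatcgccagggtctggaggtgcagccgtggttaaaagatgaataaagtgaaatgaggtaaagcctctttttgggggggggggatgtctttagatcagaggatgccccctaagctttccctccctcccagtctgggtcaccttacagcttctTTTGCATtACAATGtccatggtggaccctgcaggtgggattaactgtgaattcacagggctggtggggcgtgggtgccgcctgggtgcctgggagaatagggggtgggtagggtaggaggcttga
Zfp42: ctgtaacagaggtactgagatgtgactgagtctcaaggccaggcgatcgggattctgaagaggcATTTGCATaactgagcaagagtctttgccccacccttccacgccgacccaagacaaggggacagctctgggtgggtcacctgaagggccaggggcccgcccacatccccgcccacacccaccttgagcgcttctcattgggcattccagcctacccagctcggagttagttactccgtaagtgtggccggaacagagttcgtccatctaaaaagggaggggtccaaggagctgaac
Sox2: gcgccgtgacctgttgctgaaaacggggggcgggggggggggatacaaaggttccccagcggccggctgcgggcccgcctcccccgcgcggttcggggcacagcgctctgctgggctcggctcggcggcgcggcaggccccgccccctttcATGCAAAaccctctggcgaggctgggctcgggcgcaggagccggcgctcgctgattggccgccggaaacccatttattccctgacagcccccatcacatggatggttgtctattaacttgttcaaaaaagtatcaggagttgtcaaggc
Pou5f1: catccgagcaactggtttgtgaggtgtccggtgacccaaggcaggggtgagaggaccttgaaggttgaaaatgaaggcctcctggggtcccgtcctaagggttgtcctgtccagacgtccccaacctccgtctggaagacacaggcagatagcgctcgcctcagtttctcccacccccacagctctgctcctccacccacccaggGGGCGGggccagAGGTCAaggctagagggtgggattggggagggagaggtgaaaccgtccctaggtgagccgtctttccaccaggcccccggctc

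Counted from the gene start, the motifs lie at -75 and -67 in *Nanog*, at -186 in *Zfp42*, at -99 in *Sox2*, and at -45 and -33 in *Pou5f1*. The 8 factors have 11 windows, since *Nanog*, *Esrrb* and *Pou5f1* have 2 each, and those of *Nanog* overlap and share their matches to ATGCAAA and CATTGT. On either strand, ATGCAAAT occurred in 1 of the 11 windows and in 1.74% of all 32851 windows of the table. ATGCAAA, which overlaps the octamer, occurred in 4 of the 11 (*Nanog*, *Sox2* and *Zfp42*) and in 4.63% of all windows. CATTGT occurred in 4 windows (12.6% of all), those of *Nanog*, the other window of *Pou5f1* and a window of *Esrrb*. AGGTCA occurred in 3 (16.3% of all), also at -248 in *Nanog* and at -244 in *Sox2*. GGGCGG occurred in 5 (35.7% of all), also in *Klf2*, *Klf4*, *Sox2* (-223 and -111) and *Zfp42* (-91 and -79). The KLF motif CACCC occurred in 9 of the 11 windows, and in 57.5% of all windows, and TATAAA in 1 (*Tfcp2l1*, 13.6% of all). These matches describe letters only, and binding was not measured.

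The libraries held from 7991437 to 12024841 counted reads. A count of 3, used here as the limit of detection, corresponds to between 0.249 and 0.375 CPM, and this limit covers counting error only. Of 12 germ cell genes, 4 were higher, 6 were lower and 2 did not pass, with a median log2 fold change of -0.41. Over all genes, 16.1% were higher and 15.4% were lower by the same test, which is described below. *Prdm1* (Blimp1), *Tfap2c*, *Dppa3* (Stella) and *Kit* had group means from 192 to 691 CPM, and reporters of *Prdm1* and *Dppa3* had been used to sort the d6PGCLCs. The lower genes included *Itgb3* (integrin β3), at 197 ± 10.1 against 324 ± 23.6 CPM, and *Fut4*, which encodes a fucosyltransferase that can make the SSEA1 glycan, at 0.875 ± 0.318 against 9.87 ± 3.71 CPM (SD, n = 4 libraries each). Both relate to the surface markers of the E12.5 PGC sort, and the part of either sort gate in these counts was not tested. The later germ cell genes were low in d6PGCLCs, with *Dazl* at 37.7 ± 23.2 against 1262 ± 241 CPM, *Ddx4* at 35.5 ± 6.60 against 760.4 ± 92.2 CPM and *Mael* at 7.02 ± 4.34 against 96.5 ± 23.2 CPM (SD, n = 4 libraries each). Of 12 markers of gonadal somatic cells, 11 were in the table, and their summed level ranged from 0.498 to 1.33 CPM in the d6PGCLC libraries and from 3.43 to 6.73 CPM in the E12.5 PGC libraries. In d6PGCLCs *Tcf21*, *Emx2* and *Runx1* were at 0. Of 11 blood and endothelial markers, 10 were in the table, with summed levels of 23.1 to 36.0 and 14.6 to 25.5 CPM that came mainly from *Tek* and *Cdh5*. E12.5 PGC replicate 2 stood apart. Its 18 measured dissociation-response genes, which cells switch on when tissue is dissociated, summed to 1837 CPM. The sum was 996 to 1153 CPM in the remaining libraries of the group and 1055 to 1195 CPM in the d6PGCLC libraries. Of the 18, 17 were highest in this replicate within the group. Between the groups, 4 of the 18 were higher in d6PGCLCs, 9 were lower and 5 did not pass, with a median log2 fold change of -0.59. E12.5 PGC replicate 4 had 99 counts on Y-linked genes, of which the other 7 libraries had 0. Without these 2 libraries the same 8 factors passed the test as with all libraries, with log2 fold changes between 0.84 and 1.31.

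Transcripts of 8 of the 10 factors were more abundant in the d6PGCLC pools than in the E12.5 PGC pools, by between 1.62-fold for *Klf2* and 2.45-fold for *Tfcp2l1*. *Klf4* and *Tbx3* did not pass the test, and no factor was lower. The log2 fold changes of the 8 ran from 0.70 to 1.29, the 95% intervals of *Pou5f1* and *Klf2* lying below those of *Nanog* and *Tfcp2l1*, and the order of abundance among the factors was similar in both groups. In counts of these bulk pools, fewer cells with a transcript and less of it per cell cannot be told apart.

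The test was edgeR's quasi-likelihood test over all genes of the table, with Benjamini-Hochberg adjustment and a threshold of 0.05. Of all genes tested, 16.1% were higher and 15.4% were lower in d6PGCLCs by this rule. The table as a whole includes many genes with hardly any counts. Among the 11767 genes with more than 1 CPM in at least 3 libraries, 27.9% were higher, and 9 of the 10 factors were among these genes, *Tbx3* being left out. The counts of 8 higher and 0 lower came with 9 factors at an unadjusted p under 0.05, all of them higher. DESeq2 also gave 8 higher and 0 lower, and edgeR's likelihood ratio test, the test named in the study's methods, gave 9 and 0. The median log2 fold change was 0.95 over the 10 factors and 0.88 over the 9 past the filter on low counts, against 0.01 over all genes past that filter.

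A log2 fold change of at least 1 was reached by 4 of the 8 (*Nanog*, *Klf5*, *Tfcp2l1* and *Zfp42*), as by 8% of all genes and 12.8% of the genes past the filter, counted as higher and with the adjusted p. *Zfp42*, at 1.03, was near this limit. It was below 1 with library sizes alone (0.995), upper quartile scaling (0.991) and an offset for length (0.90). The same held without d6PGCLC replicate 2 (0.94) and without E12.5 PGC replicate 1 (0.95). At the study's threshold of an absolute log2 fold change of 2, there were 0 factors by the quasi-likelihood test, the likelihood ratio test and DESeq2, against 6.62% of all genes in either direction. That share stands for 1452 of 21950 genes in the main fit. With a prior count of 2 it was 832 of 21950 genes, again with 0 factors. For the same 8 factors every d6PGCLC value exceeded every E12.5 PGC value, a pattern that 15.4% of all genes and 26.9% of the genes past the filter showed in this direction.

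**Figure D1:**
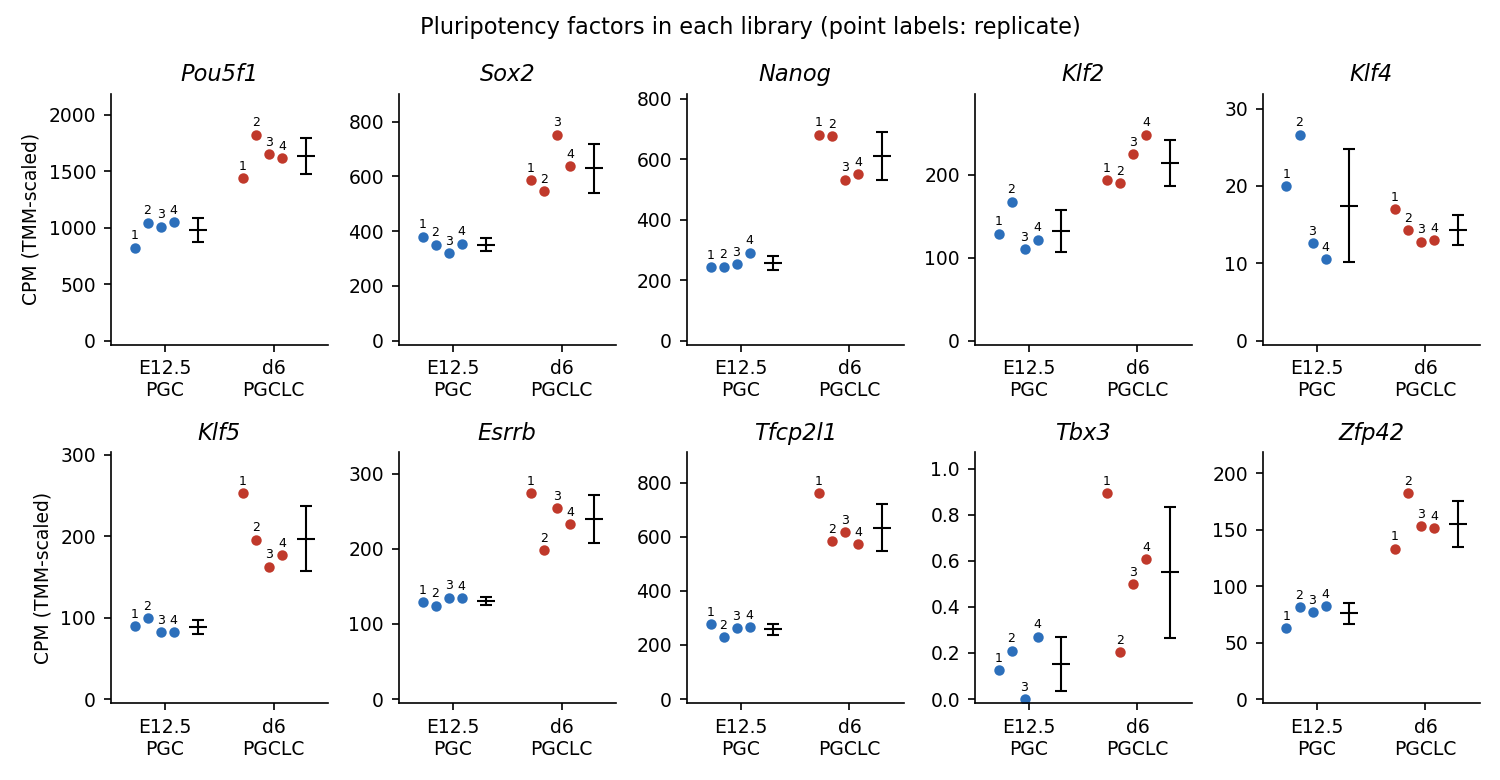
Expression of each factor in CPM (counts scaled to a common library total with TMM, linear axis from 0) in the 4 E12.5 PGC (blue) and 4 d6PGCLC (red) libraries. Numbers beside the points are replicate numbers, and bars show the mean with SD. The red points lie above all blue points for 8 factors, while for *Klf4* and *Tbx3* the groups overlap.

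*Pou5f1* (Entrez 18999, chromosome 17, 35506032 to 35510777 on the plus strand) was the most abundant factor in every library. It was at 1439.7, 1822, 1651 and 1615 CPM in d6PGCLC replicates 1 to 4 and at 822, 1043, 1008 and 1048 CPM in E12.5 PGC replicates 1 to 4. Replicate 1 was the lowest of each group, and the groups did not overlap. The log2 fold change of 0.74 (SE 0.09, adjusted p = 2.21e-06 by edgeR) is a 1.67-fold increase with a 95% interval of 1.45 to 1.91. The transcript took 0.140% to 0.179% of all counted reads in d6PGCLCs and 0.0824% to 0.110% in E12.5 PGCs. The annotated antisense gene *Gm19553* shares 291 exonic bases with *Pou5f1*. Whether the counting used strand is not given in the sources used here, and exon counts of *Pou5f1*, *Sox2* and *Klf4* cannot separate the resident genes from transcripts of any reprogramming construct in the iPSC line.

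*Sox2* (Entrez 20674, chromosome 3, 34649995 to 34652461 on the plus strand) has 1 exon and lies within the longer noncoding gene *Sox2ot* on the same strand, with 0 bases of exonic overlap. Its levels were 586, 546, 752 and 636 CPM in d6PGCLC replicates 1 to 4 and 379, 350.2, 320.1 and 354 CPM in E12.5 PGC replicates 1 to 4. The E12.5 PGC libraries were tightly grouped, and d6PGCLC replicate 3 was the highest. *Sox2* was 1.80-fold higher in d6PGCLCs (95% interval 1.56 to 2.07), with a log2 fold change of 0.84 and an adjusted p of 5.47e-07 by edgeR.

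*Nanog* (Entrez 71950, chromosome 6, 122707489 to 122714633 on the plus strand) changed most among the core factors. The d6PGCLC replicates were at 681, 677, 532 and 551 CPM and the E12.5 PGC replicates at 242, 245, 251 and 290.1 CPM. The groups were separated by a wide gap. The increase was 2.37-fold (95% interval 2.06 to 2.73), with a log2 fold change of 1.25 and an adjusted p of 2.29e-09 by edgeR. Among annotated transcripts, *Nanog-ps1* matches a stretch of 245 bases at 97.6% identity and an *Eapp* transcript another of 190 bases at 97.4%, from which reads that map to both places were not counted.

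Among the 3 KLF factors, zinc finger proteins that can in part replace each other in embryonic stem cells, *Klf2* and *Klf5* rose and *Klf4* was low in both groups. *Klf2* (Entrez 16598, chromosome 8, 72319062 to 72321654 on the plus strand) was at 193, 189, 225 and 248 CPM in d6PGCLC replicates 1 to 4. In E12.5 PGC replicates 1 to 4 it was at 129, 167, 110 and 121 CPM. Replicate 2, the library with the high dissociation-response genes, was the highest of its group and came nearest to the d6PGCLCs. The increase was 1.62-fold (95% interval 1.37 to 1.92, adjusted p = 7.29e-05 by edgeR), and the log2 fold change of 0.70 became 0.84 without that library.

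*Klf5* (Entrez 12224, chromosome 14, 99298691 to 99313412 on the plus strand) ranged from 163 to 253 CPM among d6PGCLC libraries and from 82.2 to 99.4 CPM among E12.5 PGC libraries. It was most variable in d6PGCLCs, where replicate 1 was at 253 CPM and the next library at 196 CPM. It rose 2.23-fold (95% interval 1.88 to 2.64), with a log2 fold change of 1.15 and an adjusted p of 1.07e-07 by edgeR.

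*Klf4* (Entrez 16600, chromosome 4, 55527137 to 55532475 on the minus strand) was at 17.0, 14.3, 12.8 and 13.0 CPM in d6PGCLC replicates 1 to 4 and at 20.0, 26.6, 12.6 and 10.6 CPM in E12.5 PGC replicates 1 to 4. The E12.5 PGC libraries lay on both sides of the d6PGCLC libraries, with replicate 2 the highest of all 8. The log2 fold change was -0.29 (95% interval -0.75 to 0.18, adjusted p = 0.418 by edgeR). Without E12.5 PGC replicate 2 it was -0.0022 (adjusted p = 1), and without E12.5 PGC replicate 4 it was -0.47 (adjusted p = 0.116). Over the libraries of the E12.5 PGC group, the coefficient of variation was 42.0% for *Klf4*, against 3.79% for *Esrrb* and 18.9% for *Klf2*. The part of the dissociation-response genes in the levels of *Klf2* and *Klf4* was not tested.

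**Figure D2:**
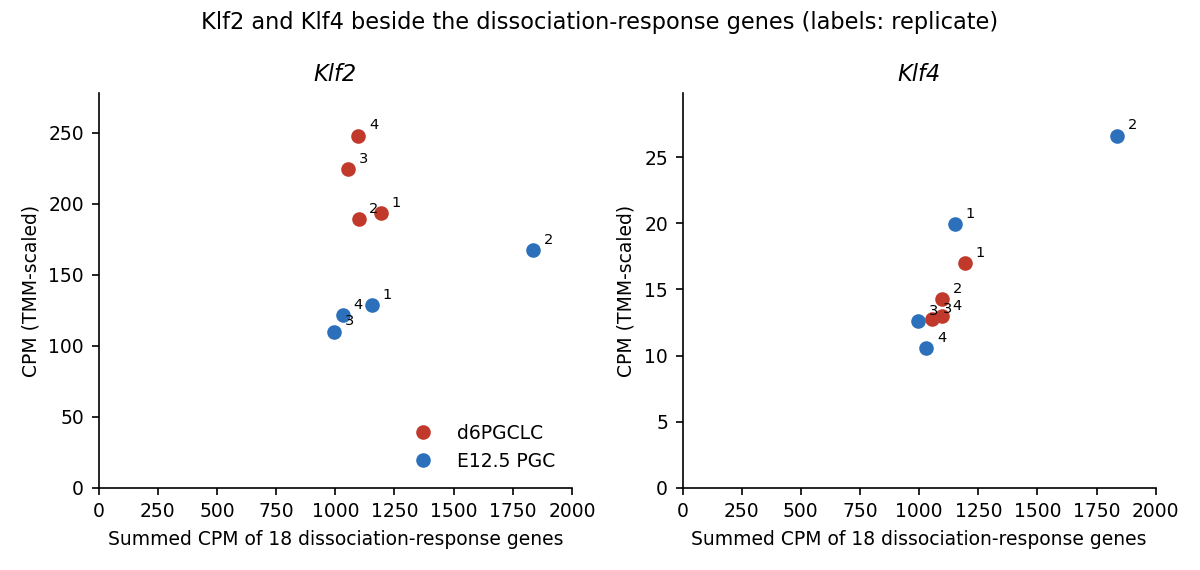
Level of *Klf2* (left) and *Klf4* (right) in CPM against the summed CPM of 18 dissociation-response genes, with 1 point per library (d6PGCLC red, E12.5 PGC blue, numbers are replicates). E12.5 PGC replicate 2 lies far to the right at 1837 CPM and has the highest level of both genes within its group.

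Of the factors outside the KLF family, *Tfcp2l1* showed the largest called increase. *Tfcp2l1* (Entrez 81879, chromosome 1, 118627923 to 118685168 on the plus strand) encodes a CP2-type factor induced by STAT3. It was at 761, 583, 617 and 573 CPM in d6PGCLC replicates 1 to 4 and at 276, 228, 263 and 267 CPM in E12.5 PGC replicates 1 to 4. The spread within each group was small beside the gap between them, and d6PGCLC replicate 1 was the highest library. The increase was 2.45-fold (95% interval 2.13 to 2.82), with a log2 fold change of 1.29 and an adjusted p of 1.30e-09 by edgeR. The snRNA *Gm23497* shares 130 exonic bases with it on the same strand.

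*Esrrb* (Entrez 26380, chromosome 12, 86361117 to 86521628 on the plus strand), an orphan nuclear receptor, ranged from 198 to 274 CPM among d6PGCLC libraries and only from 124 to 135 CPM among E12.5 PGC libraries. It rose 1.84-fold (95% interval 1.59 to 2.12, log2 fold change 0.88, adjusted p = 3.64e-07 by edgeR). *Zfp42* (Entrez 22702, chromosome 8, 43295067 to 43307009 on the minus strand), a zinc finger gene derived from a copy of *Yy1*, ranged from 133 to 182 CPM among d6PGCLC libraries and from 62.8 to 82.4 CPM among E12.5 PGC libraries. It rose 2.04-fold (95% interval 1.74 to 2.40, log2 fold change 1.03, adjusted p = 1.95e-07 by edgeR). As with *Pou5f1*, E12.5 PGC replicate 1 had the lowest *Zfp42* level of its group. *Zfp42-ps1* matches 266 bases of *Zfp42* at 98.1% identity, so reads from that stretch could be lost.

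*Tbx3* (Entrez 21386, chromosome 5, 119670534 to 119684724 on the plus strand), a T-box factor that promotes self-renewal of embryonic stem cells, was barely detected. It had 7, 2, 6 and 5 counts in d6PGCLC replicates 1 to 4 and 1, 2, 0 and 3 counts in E12.5 PGC replicates 1 to 4. All 4 E12.5 PGC libraries and d6PGCLC replicate 2 were at or below the limit of 3 counts. Its mean level of 0.550 ± 0.285 CPM in d6PGCLCs stood against 0.152 ± 0.117 in the E12.5 group (SD, n = 4 libraries each). The difference did not pass the quasi-likelihood test of edgeR (adjusted p = 0.0864, log2 fold change 1.73 with a standard error of 0.82), and passed the likelihood ratio test (adjusted p = 0.0348). The log2 fold change was 1.05 with a prior count of 2 and 3.04 without E12.5 PGC replicates 2 and 4, so its size is unsure. The antisense gene *Tbx3os1* shares 115 exonic bases with *Tbx3*.

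**Figure D3:**
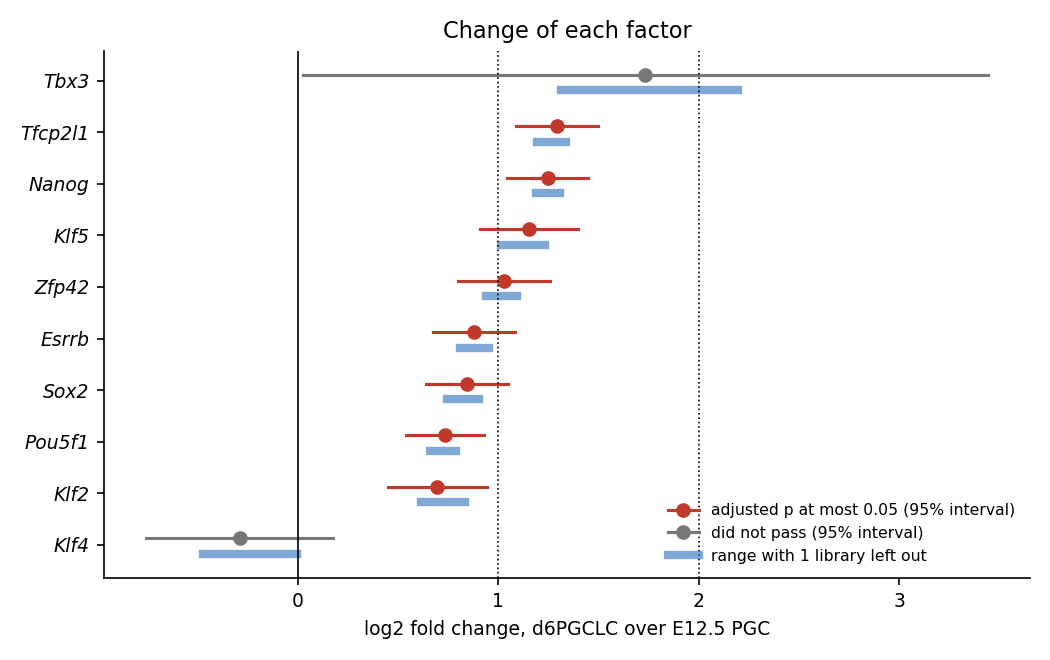
Log2 fold change of each factor, d6PGCLC over E12.5 PGC, with its 95% interval from edgeR (red where the adjusted p was at most 0.05, grey otherwise) and, in blue, the range obtained when each of the 8 libraries was left out in turn. Dotted lines mark 1 and 2. The 8 called factors lie between 0.70 and 1.29, and the interval of *Tbx3* spans most of the axis.

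Levels were compared between genes as RPKM, CPM divided by the exonic length in kilobases that the deposited table gives. In d6PGCLCs *Pou5f1* was at 1051 ± 101 RPKM, *Nanog* at 276 ± 36.0 and *Sox2* at 252 ± 35.8 (SD, n = 4 libraries). *Pou5f1* stood apart from all others, while *Nanog* and *Sox2* overlapped, with *Nanog* above *Sox2* in 2 of 4 libraries. *Klf2* (110 ± 14.3), *Klf5* (105 ± 21.0), *Esrrb* (92.1 ± 12.4), *Zfp42* (73.6 ± 9.63) and *Tfcp2l1* (64.2 ± 8.85) followed, each overlapping its neighbour in this order. *Klf4* (4.39 ± 0.596) and *Tbx3* (0.106 ± 0.055) were below without overlap.

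In E12.5 PGCs *Pou5f1* was at 631 ± 69.0 RPKM, *Sox2* at 141 ± 9.67 and *Nanog* at 116 ± 10.1. The ranges of *Sox2* and *Nanog* overlapped slightly, and *Sox2* was above *Nanog* in 4 of 4 libraries. *Klf2* was at 68.1 ± 12.9, *Esrrb* at 50.1 ± 1.90, *Klf5* at 47.0 ± 4.30, *Zfp42* at 36.0 ± 4.28 and *Tfcp2l1* at 26.2 ± 2.11 RPKM. Of these neighbours only *Esrrb* and *Klf5* overlapped. *Klf4* (5.38 ± 2.26) and *Tbx3* (0.029 ± 0.023) were again last.

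*Tfcp2l1* had about as many counts as *Sox2* and *Nanog* but was in place 8 by RPKM in both groups, since its counted transcript is 9870 bases long. *Klf5* was counted over 1885 bases, while the GENCODE transcript nearest in length has 2852, so its level per length is less sure than the others. Among all 21950 genes, *Pou5f1* had rank 21 by RPKM in d6PGCLCs and rank 35 in E12.5 PGCs. *Nanog* was at ranks 139 and 566, *Tfcp2l1* at ranks 1330 and 3381, and *Klf4* at ranks 8049 and 7414.

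**Figure D4:**
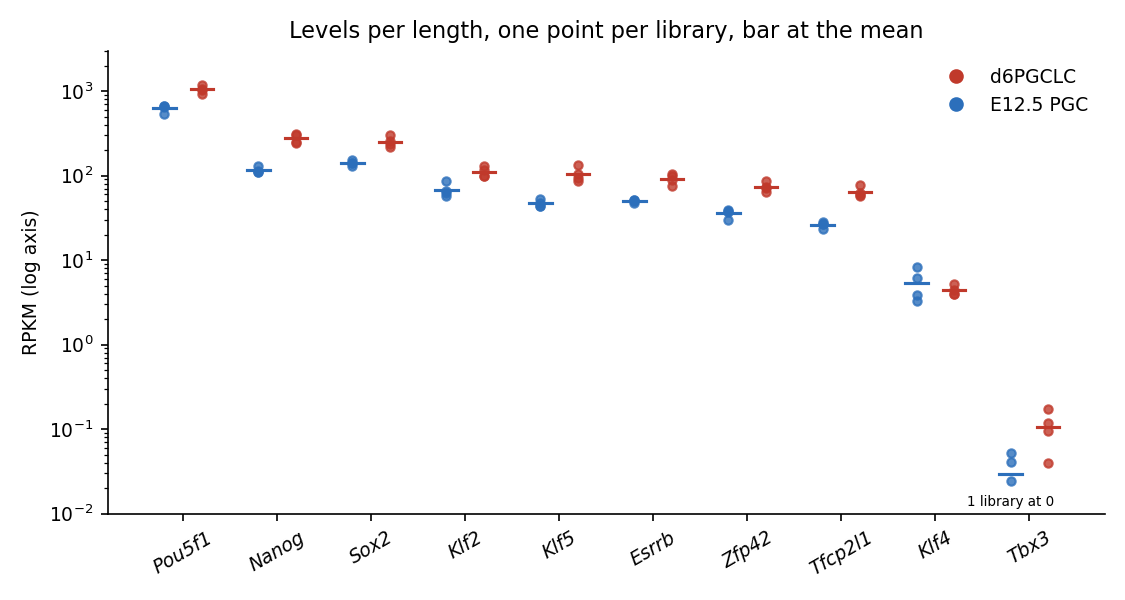
RPKM of each factor on a log axis, ordered by the mean in d6PGCLCs, with 1 point per library and a bar at the group mean (d6PGCLC red, E12.5 PGC blue). *Pou5f1* is highest in both groups, *Klf4* lies more than an order of magnitude below *Klf2*, and *Tbx3* is near 0, with 1 E12.5 PGC library at 0.

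The sum of the 10 factors ranged from 1955 to 2126 RPKM in d6PGCLCs and from 1018 to 1179 RPKM in E12.5 PGCs. *Pou5f1* made up 47.4% to 55.2% of this sum in d6PGCLCs and 52.0% to 58.5% in E12.5 PGCs. Together *Pou5f1*, *Sox2* and *Nanog* made up 75.2% to 79.9% and 77.6% to 80.6%. Of the summed RPKM of *Klf2*, *Klf4* and *Klf5*, *Klf4* held 1.77% to 2.19% in d6PGCLCs and 2.97% to 5.57% in E12.5 PGCs.

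Ratios of 2 factors within a library need no scaling for library size. In all, 5 were compared with a two-sided exact permutation test of 4 against 4 libraries, whose smallest possible p is 0.0286. The mean log2 ratio of *Nanog* over *Pou5f1* (per length) was -1.93 in d6PGCLCs and -2.44 in E12.5 PGCs, a difference of 0.50 without overlap (exact p = 0.0286, 0.0714 adjusted over the 5). That of *Esrrb* over *Tfcp2l1* was 0.52 and 0.94, a difference of -0.42, also without overlap (exact p = 0.0286, adjusted 0.0714). Neither passed 0.05 after adjustment. An offset for library effects that vary with transcript length was not applied to the ratios. In the edgeR fit with that offset, the log2 fold change was 1.48 for *Tfcp2l1* and 0.77 for *Esrrb*. In the main fit these were 1.29 and 0.88.

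The ratio of *Klf4* over *Klf2* differed by -0.91 (exact p = 0.0571, adjusted 0.0952). That of *Klf5* over *Klf2* differed by 0.43 (exact p = 0.114, adjusted 0.143), and by 0.26 without d6PGCLC replicate 1. *Sox2* over *Pou5f1* was at -2.06 ± 0.257 and -2.16 ± 0.245 (SD, n = 4 libraries each, exact p = 0.571, adjusted 0.571). This difference of 0.10 was 0.02 without d6PGCLC replicate 3 and 0.22 without d6PGCLC replicate 2 or without E12.5 PGC replicate 1, and no interval was computed for it. It was also 0.07 without E12.5 PGC replicate 2 or without E12.5 PGC replicate 4, and 0.04 without E12.5 PGC replicate 3.

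The other regulators of the network were called in both directions. Of 20 listed regulators outside the 10 factors, 19 were in the table. Of these, 5 were higher in d6PGCLCs, 4 were lower and 10 did not pass the test, with a median log2 fold change of -0.10. Over all genes, 16.1% were higher and 15.4% were lower, and 27.9% of the genes past the filter on low counts were higher. The counts are therefore not read as a trait of these regulators. The same shares are the background for the lists that follow. The abundant *Sall4* was at 906 ± 101 CPM in the d6PGCLC and 974 ± 95.4 CPM in the E12.5 PGC libraries (SD, n = 4 each, adjusted p = 0.526 by edgeR), and *Tcf3* at 670.1 ± 30.2 and 598 ± 8.35 CPM (adjusted p = 0.131). The listed *Tcf3* (Entrez 21423) is the E2A gene, not *Tcf7l1* (Entrez 21415), which work on pluripotency has also called TCF3. It is counted among the 10 that did not pass. *Stat3*, *Sall1*, *Prdm14* and *Zscan10* were among the higher ones. *Gbx2* fell by 2.25 and *Tcf7l1*, a repressor of *Nanog* in embryonic stem cells, fell by 2.23 on the log2 scale, and *Lin28a* and *Zfx* were also lower.

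Of 14 listed targets of OCT4, SOX2 and NANOG, 9 were higher, 1 was lower and 4 did not pass, with a median log2 fold change of 1.05. The most abundant were *Dppa5a*, at 1057 ± 287 and 555 ± 126 CPM (adjusted p = 9.79e-05 by edgeR), and *Trim28*, which did not pass (log2 fold change -0.03). *Tdgf1*, the Nodal co-receptor, rose from 6.32 ± 1.88 to 131 ± 16.2 CPM, and *Lefty2*, a Nodal antagonist, from 12.4 ± 7.07 to 130.4 ± 38.9 CPM. Their log2 fold changes were 4.35 and 3.38, against at most 1.29 for a called factor. *Dppa4* was lower by a small amount, with a log2 fold change of -0.29.

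Of 10 genes of the LIF and STAT3 pathway, which acts upstream of *Klf4* and *Tfcp2l1*, 7 were higher, 2 were lower and 1 did not pass, with a median log2 fold change of 0.79. *Socs3*, the feedback inhibitor, had a log2 fold change of 4.87 and *Gfpt2* 1.67, while the abundant *Pim1* had 1.23. *Jak1* and *Jak2* were lower. *Tfcp2l1* was thus higher and *Klf4* did not pass in the same libraries in which *Socs3* and *Stat3* were higher. LIF was in the culture medium of the d6PGCLCs, and its part in these values was not tested.

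Of 10 measured genes of formative and primed pluripotency, the state that follows the naive state in the embryo, 1 was higher, 7 were lower and 2 did not pass, with a median log2 fold change of -2.01. These genes were low in all libraries, with a sum of 22.4 to 36.9 CPM in the d6PGCLC libraries and 28.6 to 35.8 CPM in the E12.5 PGC libraries. *Dnmt3b*, the higher one, was at 20.4 ± 6.16 and 10.6 ± 1.92 CPM, and *Pou3f1*, a POU factor of the formative state, was at 2.01 ± 0.854 and 5.61 ± 1.29 CPM.

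**Figure D5:**
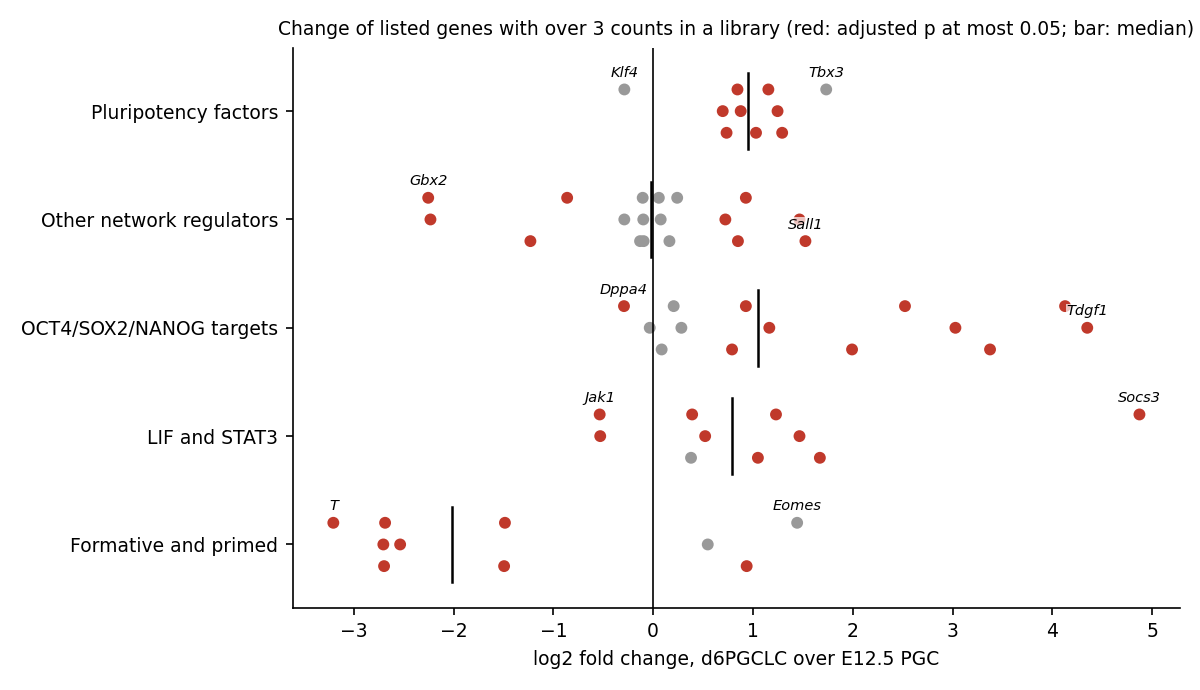
Log2 fold change, d6PGCLC over E12.5 PGC, of the 10 factors and of genes of 4 related lists with more than 3 counts in at least 1 library. Each point is a gene, red where the adjusted p by edgeR was at most 0.05, bars are medians, the vertical place within a row has no meaning, and the lowest and highest gene of each row are named. The factors run from -0.29 for *Klf4* to 1.73 for *Tbx3*, the targets reach 4.35 for *Tdgf1* and the LIF and STAT3 genes reach 4.87 for *Socs3*.

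Relatives of the factors within their own protein families were called in both directions. Of 17 KLF genes, *Klf2*, *Klf4* and *Klf5* included, 6 were higher, 3 were lower and 8 did not pass, with a median log2 fold change of 0.08. Over all genes, 16.1% were higher and 15.4% were lower, and 27.9% of the genes past the filter were higher. The KLF counts are therefore not read as a trait of the family. *Klf2* and *Klf5* were the most abundant by RPKM averaged over all 8 libraries, although in E12.5 PGCs alone *Klf10* (52.5 RPKM) and *Klf11* (49.6 RPKM) were above *Klf5* (47.0 RPKM). *Klf15* rose from 3.39 ± 0.366 to 15.0 ± 3.17 CPM, and *Klf12* fell from 8.84 ± 1.83 to 1.26 ± 0.137 CPM. *Klf6*, which is also among the dissociation-response genes, was lower at 58.7 ± 9.22 against 97.7 ± 23.1 CPM. Of the 17, 9 were highest within their group in E12.5 PGC replicate 2. Of 15 POU genes, 1 (*Pou5f1*) was higher, 5 were lower and 9 did not pass, and the next most abundant by RPKM, *Pou2f1*, was at 6.61 ± 0.733 and 9.12 ± 0.630 CPM, while *Pou2f3* was at 31.7 ± 4.35 and 30.7 ± 1.31 CPM. *Pou2f1* was counted over only 469 bases, against 3042 for *Pou2f3*, so its place by RPKM depends on that short length.

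Of the 3 SOXB1 genes, *Sox2* was higher, *Sox3* was lower (0.415 ± 0.376 against 2.90 ± 0.671 CPM) and *Sox1* had at most 3 counts in every library. Neither *Esrra* nor *Esrrg* passed the test beside *Esrrb*, and *Esrra* was at 6.48 ± 1.49 and 8.50 ± 1.57 CPM. Among 6 genes of the CP2 family, *Tfcp2l1*, *Grhl3* (log2 fold change 1.33) and *Tfcp2* (0.65) were higher and *Ubp1* (-0.37) was lower. Of the 4 genes of the TBX2 subfamily the only one called was *Tbx4*, at 73.9 ± 28.9 CPM in the d6PGCLC and 271 ± 8.65 CPM in the E12.5 PGC libraries, far above *Tbx3* in both. *Yy1*, the relative of *Zfp42*, rose by 0.60 on the log2 scale, and *Yy2* did not pass.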

How the data were processed

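RNA was measured in 8 pools, 4 of d6PGCLCs and 4 of E12.5 PGCs. The authors deposited raw counts per gene. Single-end reads of a stranded mRNA kit were aligned with STAR to GRCm38 (mm10) with spike-in sequences, and uniquely mapped reads on the exons of a randomly chosen isoform were counted with QuasR, so stretches shared with near-copies lose reads. Strand use in counting is not given in the sources used here. The deposited exonic length was used for RPKM.

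Entrez identifiers were matched to RefSeq symbols for 21907 of 21950 genes. Counts were TMM-normalized and fitted in R 4.3.3 with edgeR 4.0.16 (quasi-likelihood, prior count 0.125, cell type only, no filter), adjusted over all genes. DESeq2 1.42.0 and the other alternatives are given in the closing section. In simulated counts for this comparison (21950 genes), 43 of 67 genes changed 1.5-fold, 63 of 67 changed 2-fold and 66 of 66 changed 4-fold were called, with 3 of 21750 unchanged genes. The changed genes were drawn only from well-counted genes, and the spread of each gene followed the trend with its mean count. The shares called therefore do not apply to *Tbx3*, with a mean of 3.25 counts. Library pairs of a group differed by 3.19 to 20.8 chi-square units per degree of freedom, more than sampling noise. Near-copies (at least 97% identity over 100 bases) were searched in GENCODE M21 with blastn 2.17.0.

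The factors and lists were chosen with earlier results of these data known. All 10 factors are named, and of each pathway or family list the 2 most abundant genes by RPKM, the 2 with the largest change at a mean of at least 100 counts, and relatives of a factor. Genes of the marker lists, and some further list genes named beside a count of 5 or fewer, were chosen after their values were seen. The motif ATGCAAA was added after the promoters had been read. Single results for a few listed genes are not reported here.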

Additional observations from a re-analysis of the deposited data

Results flagged for a closer look

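The log2 ratio of *Sox2* over *Pou5f1* in E12.5 PGC replicate 1 was -1.80, while the other 3 libraries of the group lay between -2.34 and -2.25. The gap to the nearest library was 0.835 of the whole range, above Dixon's 95% critical value for 4 samples. This was 1 of 30 sets of values examined in this way, of which chance gives about 1.5. The library had the lowest *Pou5f1* level (822 CPM) and the highest *Sox2* level (379 CPM) of its group.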

How the results depend on the processing

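The same 8 factors were called higher, and 0 lower, with DESeq2, 3 other normalizations, both filters on low counts, a prior count of 2, the length offset, an adjusted p of 0.01 and each library left out in turn (8 to 8). With the likelihood ratio test *Tbx3* was called in addition, which made 9. Tested against a log2 fold change of 1 (glmTreat), 2 factors remained, *Nanog* and *Tfcp2l1*, because this test asks for a larger change. No direction reversed. The widest range with 1 library left out was that of *Tbx3* (1.31 to 2.20), whose log2 fold change was 1.05 with a prior count of 2 and 3.04 without E12.5 PGC replicates 2 and 4 (adjusted p = 0.0639 by edgeR). The share of higher genes among all calls moved from 51.0% to between 46.5% (length offset) and 56.0% (glmTreat), and the median of expressed genes by less than 0.1. Over all genes, 1452 passed at an absolute log2 fold change of 2, against 832 with a prior count of 2 and 934 and 847 with the filters. The main fit did not take replicate numbers as pairs. Libraries of the same replicate number deviated together with correlations of 0.33, 0.13, -0.05 and 0.05. Those of different numbers ranged from -0.22 to 0.17, below the 0.33 of replicate 1. These values do not settle whether the numbers mark pairs. A replicate block left the factors at 8 higher and 0 lower and raised the calls over all genes from 6919 to 7270. With 1 library left out, the difference of the log2 ratio of *Sox2* over *Pou5f1* ranged from 0.02 to 0.22 and that of *Klf5* over *Klf2* from 0.26 to 0.55. *Tbx3* had 0 to 7 counts in a library, and the effect of depth on its call was not tested.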
